A study of Mus musculus with 2 samples.

Results

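Leukocyte nuclei that held few transcripts of either of 2 macrophage programmes were described in single-nucleus RNA sequencing of ischaemic mouse muscle. They numbered 1165 of 7547 leukocyte nuclei and of 23616 nuclei in all. Members were chosen by measured counts of unique molecular identifiers (UMIs), each of which stands for 1 captured RNA molecule. A nucleus needed at least 2000 UMIs with at most 5% of them mitochondrial, and at least 4 UMIs summed over the leukocyte genes Ptprc, Dock2, Arhgap15, Myo1f and Ly86. It could hold at most 2 UMIs of Mrc1, F13a1 and Cd163, which mark resident-type macrophages, and at most 2 of Gpnmb, Atp6v0d2 and Alcam, which mark lipid-handling macrophages. Cycling nuclei, satellite and fibroadipogenic nuclei and nuclei rich in fibre transcripts were left out by limits on Top2a, Mki67, Kif11, Knl1 and Kif15 (at most 2 UMIs), on Pax7 and Pdgfra (at most 1 UMI) and on Ttn, Neb, Trdn and Dmd (under 1% of UMIs). Levels of these 22 genes therefore follow from the choice and are given only as description.

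The nuclei came from the tibialis anterior, which lifts the foot. The mice were male, 16 to 20 weeks old and had chronic kidney disease, and their femoral artery had been tied off 5 days before. One library was labelled AHRfl/fl and the other AHRmKO. Both carried the same strain label, which joins a floxed allele of the aryl hydrocarbon receptor gene (AHRtm3.1Bra/J) to a transgene, Tg(ACTA1-cre/Esr1*)2Kesr/J. That transgene makes Cre recombinase from a skeletal actin promoter, so in muscle fibres, and the enzyme acts once its ligand is given. The labels do not say whether the AHRfl/fl mice carried Cre or received the ligand, or how many animals were pooled. All mice of both groups had kidney disease and ligation. Each group was 1 library, so no difference between the groups has a replicate check and no p-value is given. Intervals are at 95% and cover counting error only.

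Leukocytes reach an injured muscle from the blood, first as neutrophils and then as monocytes, which turn into macrophages within the tissue. Monocytes carry Ccr2 or Cx3cr1, receptors for chemokines, and integrins such as Itgal with which they leave vessels. Macrophages that stay can take up a resident programme with scavenger receptors such as Mrc1 and Cd163, a programme of lysosomal and lipid handling marked by Gpnmb, or both. Type I interferon, released when nucleic acids are sensed, acts through factors such as IRF9, which bind paired GAAA motifs in the promoters of genes such as Rsad2, Ifit3 and Isg15. AHR is a transcription factor that binds small ligands, including tryptophan products retained in kidney failure. It pairs with ARNT on GCGTG motifs.

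Interferon-induced genes led 1 of the sub-clusters of these nuclei, so promoters of that family are shown. The motif, GAAA followed after any 2 bases by GAAA, was searched on both strands in the 250 bases before the start site of each RefSeq promoter (GRCm38.p6). Of 35 interferon-response genes listed, 29 had an entry, and 11 of those (37.9%) held the motif: Ifit1, Ifit3, Isg15, Oas1a, Oas3, Rsad2, Stat2, Trim30a, Ifi207, Ifi213 and Slfn5. Of the 27025 genes with an entry, 3.46% held it, and of all 32851 promoters 2.98%. Matches on either strand are in capitals, and each sequence ends at the base before the start site. Rsad2 and Ifit3 were among the 5 leading genes of that sub-cluster, Isg15 and Oas1a hold overlapping matches, and Ifi213 was among the genes highest over Gpnmb-high nuclei once 3 sub-clusters with genes of other lineages were left out.
Rsad2 (chr12:26456453-26456602, minus strand): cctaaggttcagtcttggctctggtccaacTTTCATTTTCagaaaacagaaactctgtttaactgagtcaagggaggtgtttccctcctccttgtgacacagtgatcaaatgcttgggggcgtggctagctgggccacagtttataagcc
Ifit3 (chr19:34583279-34583528, plus strand): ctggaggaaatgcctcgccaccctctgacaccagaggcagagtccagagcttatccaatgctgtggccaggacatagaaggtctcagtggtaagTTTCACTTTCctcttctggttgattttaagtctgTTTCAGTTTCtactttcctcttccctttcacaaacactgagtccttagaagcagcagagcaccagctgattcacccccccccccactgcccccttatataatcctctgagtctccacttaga
Isg15 (chr4:156200819-156200968, minus strand): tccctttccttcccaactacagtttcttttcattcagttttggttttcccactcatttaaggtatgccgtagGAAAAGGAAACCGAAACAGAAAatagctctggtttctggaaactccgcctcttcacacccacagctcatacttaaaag
Oas1a (chr5:120907526-120907675, minus strand): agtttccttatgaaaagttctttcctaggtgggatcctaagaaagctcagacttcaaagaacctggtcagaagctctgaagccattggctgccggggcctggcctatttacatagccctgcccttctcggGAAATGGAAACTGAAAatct
Ifi213 (chr1:173599273-173599422, minus strand): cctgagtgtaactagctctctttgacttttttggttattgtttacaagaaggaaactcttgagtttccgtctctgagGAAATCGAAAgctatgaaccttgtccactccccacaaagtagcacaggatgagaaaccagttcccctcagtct
The Rsad2 match lay 120 to 110 bases before the start, the Ifit3 pair between 156 and 112, the 3 overlapping Isg15 matches between 78 and 56, the 2 overlapping Oas1a matches between 20 and 4, and the Ifi213 match between 73 and 63. Rsad2 encodes viperin, which blocks viral replication, Ifit3 an RNA-binding antiviral protein, Isg15 a ubiquitin-like modifier, Oas1a a sensor of double-stranded RNA and Ifi213 a DNA-sensor family protein. A match is a run of letters and was not tested as a binding site. This motif stood in 0 of the 6 matched promoters of MHC class II presentation genes.

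In the library labelled AHRfl/fl, 846 of 6060 leukocyte nuclei were low in both programmes, a share of 14.0% (Clopper-Pearson interval 13.1 to 14.9). In the library labelled AHRmKO the nuclei numbered 319 of 1487, or 21.5% (19.4 to 23.6). The share was thus 7.49 percentage points higher in AHRmKO (Newcombe interval 5.29 to 9.81). As shares of all nuclei the values were 4.98% and 4.81%, since leukocyte nuclei as a whole were a smaller part of the AHRmKO library. The other leukocyte nuclei were 955 and 186 Mrc1-high nuclei (3 or more UMIs of the Mrc1 genes only), 2691 and 640 Gpnmb-high nuclei (3 or more of the Gpnmb genes only), and 1568 and 342 high in both.

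**Figure D1:**
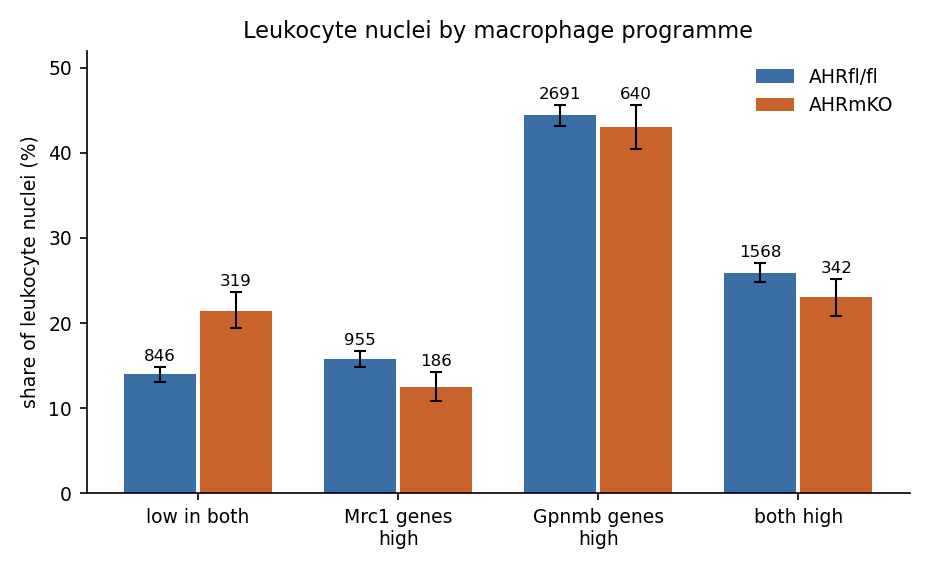
Share of leukocyte nuclei (%) in each of 4 sets, by library, with Clopper-Pearson 95% intervals and the number of nuclei above each bar. The AHRmKO bar stands above the AHRfl/fl bar for the nuclei low in both programmes, at 21.5% against 14.0%, and below it for the other 3 sets.

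Nuclei low in both programmes were also the shallowest. Their median was 2534 UMIs in AHRfl/fl and 2626 in AHRmKO, against 2722 and 2781 in Mrc1-high nuclei, 2865 and 3342 in Gpnmb-high nuclei, and 3492 and 4457 in nuclei high in both. With every barcode thinned to 2000 UMIs before the rule was applied, the shares were 23.0% and 35.9% and the difference 12.9 points. The set has no gap at its limits. In AHRfl/fl, 148 members held 2 UMIs of the Mrc1 genes and 331 held 2 of the Gpnmb genes, while 96 and 279 nuclei stood just outside with 3. In AHRmKO the same counts were 46 and 109 inside against 31 and 69 outside. Members with 0 UMIs in both programmes numbered 90 and 62. At the leukocyte limit, 14 members in each library held 4 UMIs, and 46 and 11 nuclei with 3 fell outside.

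The leukocyte label was checked on 2 markers that the rule did not use. Of the members, 83.1% in AHRfl/fl (80.4 to 85.6) and 64.9% in AHRmKO (59.4 to 70.1) carried a UMI of Fgr or Epsti1, against 7.35% and 5.60% of Pax7 nuclei, which are satellite cells and were deeper, at medians of 3981 and 4290 UMIs. Pax7 nuclei were chosen by 2 or more Pax7 UMIs and at most 1 UMI of the leukocyte genes. Their low shares of leukocyte markers, here and below, therefore follow in part from that choice. Fgr, a Src-family kinase of myeloid cells, stood at 798 CPM (counts per 1000000 UMIs of the summed nuclei) in AHRfl/fl and 549 in AHRmKO. Free RNA, read from barcodes of 200 to under 500 UMIs, held 35.05 and 53.5 CPM of it. Ptprc, which encodes the leukocyte phosphatase CD45 and was used by the rule, stood at 2772 and 2309 CPM. Macrophage genes outside the rule were present to different degrees. Mertk, a receptor for the uptake of dead cells, stood at 1743 and 1803 CPM against 242 and 375 in free RNA, and Csf1r, the receptor for macrophage colony-stimulating factor, at 551 and 663 CPM against 314.5 and 94.4. The 12 macrophage markers summed to 6279 CPM in AHRfl/fl, below the 7277 CPM of free RNA, and to 5253 CPM in AHRmKO, above its 2180. Of the 12, 6 stood above free RNA in AHRfl/fl and 8 in AHRmKO, and the complement genes C1qa and C1qc and the lysozyme gene Lyz2 were below it in AHRfl/fl. Over the 12 macrophage markers the median log2 ratio was -0.30 in AHRfl/fl and -0.31 in AHRmKO against Mrc1-high nuclei, and 0.11 and 0.28 against Gpnmb-high nuclei.

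Markers of other leukocytes were at different levels. The neutrophil list summed to 317 UMIs (133.5 CPM) in AHRfl/fl and 206 UMIs (219.7 CPM) in AHRmKO, above the 66.5 and 55.2 CPM of free RNA. Of these UMIs, 293 and 203 were of Csf3r, the receptor for granulocyte colony-stimulating factor, while S100a8 and S100a9 gave 6 and 4 in AHRfl/fl and 0 each in AHRmKO, and Ly6g gave 0 in both. All 8 markers of type 1 conventional dendritic cells stood above free RNA in both libraries, with sums of 704 and 849 CPM against 196 and 229.8. Most of these UMIs were of Irf8, Cadm1 and Wdfy4, while the defining Xcr1 gave 2 and 1 UMIs and Clec9a 11 and 2. The share of nuclei with 2 or more UMIs of that list was 48.0% and 59.9% of members, 35.7% and 57.0% of Mrc1-high nuclei, 55.0% and 73.1% of Gpnmb-high nuclei, and 6.10% and 5.26% of Pax7 nuclei. T cell markers summed to 46.7 and 177 CPM against 25.8 and 14.98 in free RNA, and B cell markers to 284.6 and 312.5 CPM against 192 and 396. The B cell list gave 676 and 293 UMIs, and over both libraries 517 lay in sub-cluster 4, described below with fibroadipogenic markers. With each library clustered alone, Ebf1 gave 432 and 199 UMIs in the sub-cluster with most Slit3. Pax5 gave 0. The classical monocyte markers summed to 807 and 292 CPM in the members, below the 1872 and 380 CPM of free RNA in the same libraries, so their sum cannot be told apart from background. Nuclei with 2 or more UMIs of that list were 51.5% and 17.9% of members, beside 57.8% and 47.7% of Pax7 nuclei. Of the 10 genes, Ccr2 and Gpr141 stood above free RNA in both libraries. Ccr2, the receptor that draws monocytes from blood, was at 179 CPM in AHRfl/fl members against 82.8 in free RNA, and at 57.6 against 14.7 in AHRmKO. Ly6c2 gave 51 and 0 UMIs, and its 21.5 CPM in AHRfl/fl lay below the 84.9 of free RNA. Nuclei with 2 or more UMIs of the nonclassical list were 48.6% and 50.8% of members, beside 14.1% and 16.5% of Pax7 nuclei. Among these markers, Itgal, Pou2f2, Cx3cr1 and Adgre4 were above free RNA in both libraries, while Spn, Ace and Treml4, which define that cell, gave 11, 19 and 1 UMIs in AHRfl/fl and 2, 4 and 1 in AHRmKO. Plasma cell markers gave 4 and 2 UMIs and eosinophil markers 6 and 2.

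The members of both libraries were clustered together into 7 sub-clusters. Because clustering used every gene of these nuclei, the leading genes are a description and carry no test, and several sub-clusters held almost only 1 library, which cannot be told apart from a cell type. Sub-cluster 1, the one with most nuclei (531 AHRfl/fl and 2 AHRmKO nuclei), was led by Tg, Slc7a15, H2-Eb1, Cx3cr1 and H2-Ab1. Tg and Slc7a15 overlap a stronger gene on the other strand, and whether counting used strand is not given in the sources used here, so their reads are uncertain. Fgr was highest there, at 1135 CPM. Sub-cluster 2 (176 and 0 nuclei) was led by Reps2, Ctsk, Gas7, Glp2r, which overlaps the stronger Gas7, and Fgf13, with Fgr at 218 CPM and Spp1, which encodes osteopontin, at 1610 CPM. Ctsk encodes the collagen-degrading cathepsin K. Sub-cluster 6 held 1 AHRfl/fl and 285 AHRmKO nuclei, 89.3% of all AHRmKO members. It was led by Fos, Rilpl2, Fosb, Neurl2 and Lars2. Neurl2 overlaps Ctsa, which is stronger, on the other strand.

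Sub-cluster 3 (58 and 2 nuclei) was led by interferon-induced genes: Rsad2 at 871 CPM against 20.7 in the other members, Ifit2 at 466 against 17.8, Ifi44 at 239 against 4.77, Cxcl10 at 776 against 38.2 and Ifit3 at 292 against 11.4. Cxcl10 encodes a chemokine for activated T cells. Its 35 interferon-response genes summed to 22146 CPM, while the other 6 sub-clusters lay between 2171 and 4354 CPM.

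3 further sub-clusters, of 110 nuclei in all, carried genes of other lineages. Sub-cluster 0 (54 and 7 nuclei) was led by Mecom, Ldb2, Col19a1, Sema6a and Sema3a, and 9 of 9 endothelial and 5 of 8 satellite cell markers were raised 2-fold or more over the median of the other sub-clusters. Its endothelial markers summed to 1197 CPM in the AHRfl/fl and 85.8 CPM in the AHRmKO nuclei. They rested on few nuclei. At resolution 1.0, a sub-cluster of 9 AHRfl/fl nuclei held 170 Mecom and 120 Ldb2 UMIs, beside 177 and 120 in sub-cluster 0. Sub-cluster 0 had a median of 4580 UMIs, and 14 of its 54 AHRfl/fl and 1 of its 7 AHRmKO nuclei were among the highest doublet scores of Scrublet, which marked 16 AHRfl/fl and 4 AHRmKO members in all. Sub-cluster 4 (21 and 15 nuclei) was led by Slit3, Sned1, Dlc1, Meg3 and Pcdh9 with 9 of 9 fibroadipogenic markers raised, and 2 and 3 of its nuclei were marked, so that each marked member lay in sub-cluster 0 or 4. Sub-cluster 5 (5 and 8 nuclei) was led by St6galnac3, Cd163l1, Tox, Clnk and Cd247, which overlaps the stronger Pou2f1, with 11 of 14 T cell and 9 of 10 NK cell markers raised. In a sub-cluster of so few nuclei, 1 UMI of a marker, here 29.03 CPM, can count as raised. The T cell list gave 226 UMIs and the NK cell list 39. Sub-cluster 5 held Il23r, the interleukin-23 receptor, at 1277 CPM. Tcrg-C1, Trdc and Tcrg-V6 of the gamma-delta T cell receptor gave 7, 5 and 6 UMIs (203, 145 and 174 CPM). Of the alpha-beta receptor, the beta constant genes Trbc1 and Trbc2, which are close copies, gave 9 and 3 UMIs (261 and 87.1 CPM) and the alpha constant gene Trac gave 0. Klra8, an NK cell receptor gene, gave 13 UMIs (377 CPM) in 2 of the 13 nuclei. The libraries differed within this sub-cluster. NK cell markers summed to 2859 CPM in its 5 AHRfl/fl nuclei and 222 CPM in its 8 AHRmKO nuclei, and T cell markers to 5549 and 7092 CPM. Clustering each library alone gave an AHRfl/fl sub-cluster of 5 nuclei with 8 of 10 NK cell markers raised and 13 UMIs of Klra8, and an AHRmKO sub-cluster of 8 nuclei with 11 of 14 T cell markers raised, 39 UMIs of Il23r and 73 of Cd163l1. No name was given to these 13 nuclei. Without the 110 nuclei, 766 AHRfl/fl and 289 AHRmKO nuclei remained, and values without them are given beside the main counts and directions that changed. A minimum of 4000 UMIs, an alternative named below, left 68 AHRfl/fl and 38 AHRmKO members. In AHRfl/fl the medians of sub-clusters 0 and 4 were 4688 and 4565 UMIs, above that minimum. Values under it therefore describe an AHRfl/fl set with a larger part of those nuclei.

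**Figure D2:**
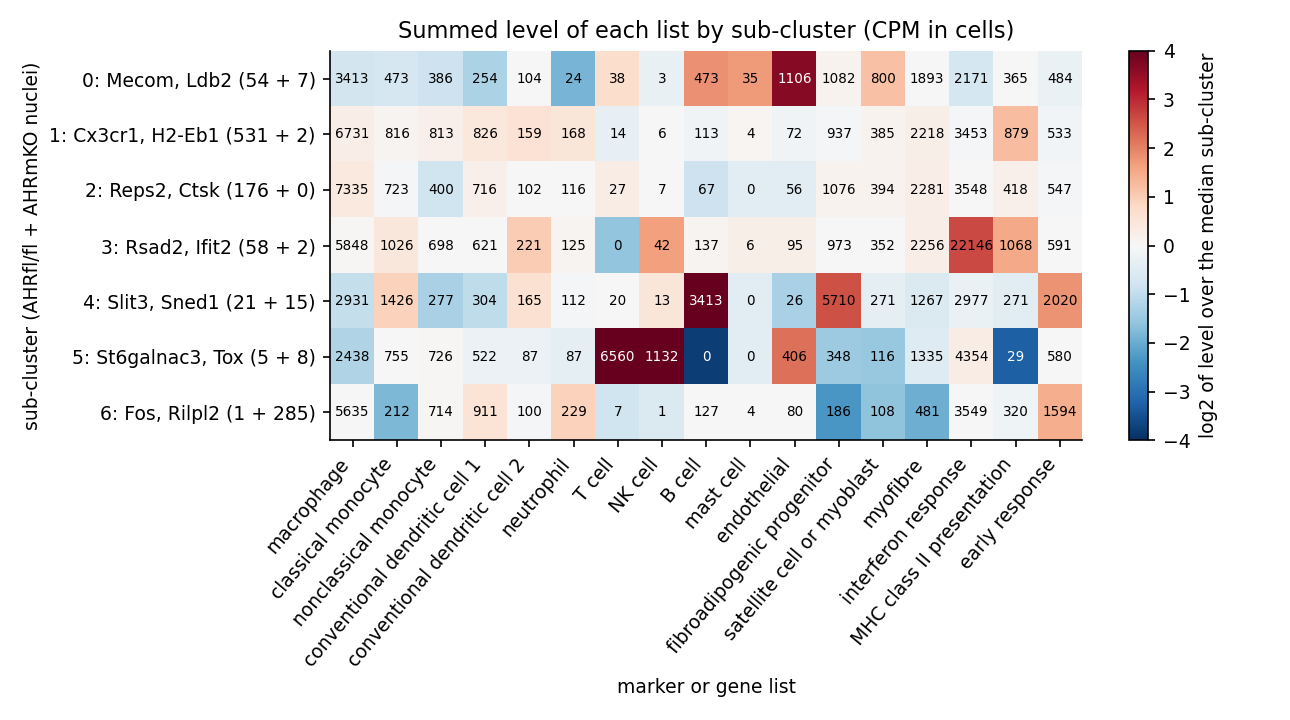
Summed level in CPM (numbers in cells) of marker and gene lists in each of the 7 sub-clusters, with the numbers of AHRfl/fl and AHRmKO nuclei in parentheses and the colour giving the log2 ratio to the median sub-cluster with 10 CPM added. The interferon list stands out in sub-cluster 3, the endothelial, fibroadipogenic and T cell lists in sub-clusters 0, 4 and 5, and the early response list in sub-clusters 4 and 6.

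Interferon-response UMIs per nucleus formed a tail in every set. Nuclei with 30 or more UMIs of the 35 genes numbered 69 of 846 AHRfl/fl members (8.16%, 6.40 to 10.2) and 17 of 319 AHRmKO members (5.33%, 3.13 to 8.396). The difference was -2.83 points with an interval of -5.67 to 0.64, which holds 0. In Mrc1-high nuclei the shares were 8.59% and 12.4%, and in Gpnmb-high nuclei, which were deeper, 5.95% and 7.19%. Thinned to 2000 UMIs and counted at 20 or more, they were 8.98% and 5.33% of members, 8.59% and 8.602% of Mrc1-high nuclei, and 4.57% and 2.03% of Gpnmb-high nuclei. In AHRfl/fl, 53 of the 58 nuclei of sub-cluster 3 lay past 30 UMIs, with a median of 55.5 and a range of 25 to 157. In AHRmKO, 14 of the 17 lay in sub-cluster 6 and 2 in sub-cluster 3. There is no gap at this limit, since 15 AHRfl/fl members held 25 to 29 UMIs and 6 held 30 to 34.

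**Figure D3:**
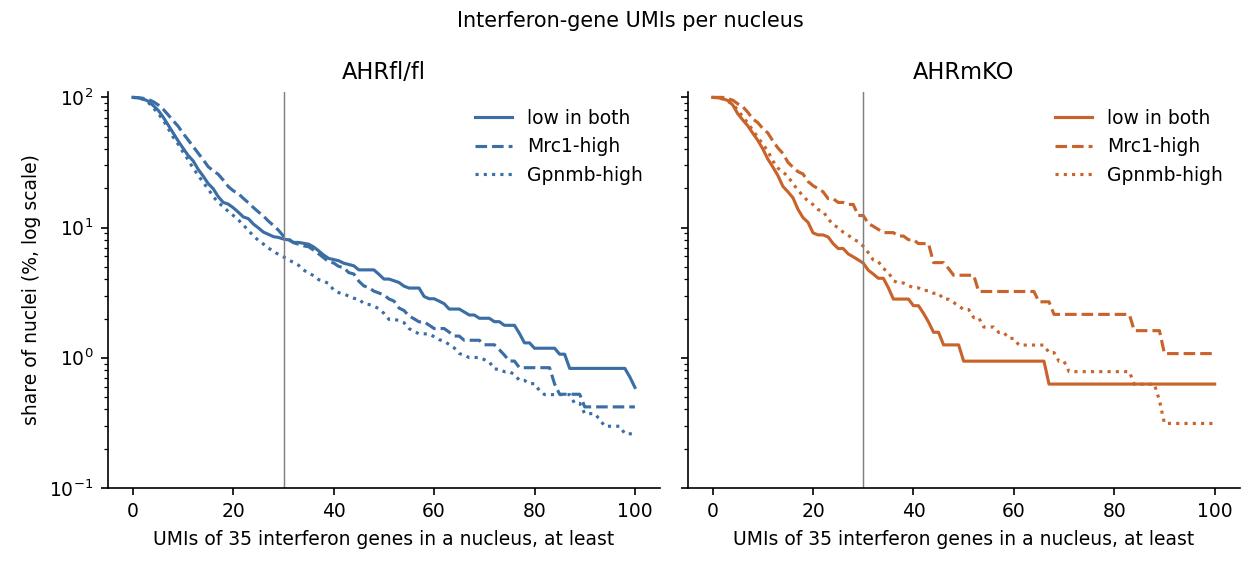
Share of nuclei (%, log axis) that held at least a given number of UMIs of 35 interferon-response genes, for nuclei low in both programmes and for Mrc1-high and Gpnmb-high nuclei of each library, with a grey line at 30 UMIs. The solid AHRfl/fl line runs above the dotted Gpnmb-high line past 30 UMIs, and the solid AHRmKO line runs below the dashed Mrc1-high line.

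What set the nuclei low in both programmes apart from Mrc1-high nuclei, besides the genes of the rule, were higher Itgal and Fgr and lower Rbpj, Plekhg5 and Abca9. Of 10230 genes compared, 68 (0.665%) were 2-fold or more higher in both libraries and 58 (0.567%) 2-fold or more lower. Leaving out the 110 nuclei described above gave 49 and 81 of 9903. The sets were divided on counts of the same nuclei, so these ratios describe the division and were not tested. Itgal, the alpha chain of the integrin LFA-1, gave 375 UMIs (158 CPM) in AHRfl/fl members and 35.1 CPM in Mrc1-high nuclei, and 183 UMIs (195 CPM) against 59.3 CPM in AHRmKO. Its log2 ratios were 2.15 (1.85 to 2.499) and 1.71 (1.21 to 2.26). Fgr stood at 798 against 199 CPM in AHRfl/fl and at 549 against 233 CPM in AHRmKO, log2 ratios of 2.00 and 1.24. Both genes were higher in the members in both libraries. Axl, a receptor tyrosine kinase that limits innate responses, Kynu, an enzyme of tryptophan breakdown, Retreg1, Stra6l, Arl5c and Bin2 completed the 8 highest, with ratios between 0.99 and 2.15. Axl stood below free RNA in AHRfl/fl, at 98.5 against 128 CPM. Alternative UMI, leukocyte and programme limits redrew the Mrc1-high and Gpnmb-high sets as well as the members. Each of the 8 missed 2-fold in 1 or both libraries under at least 1 alternative. The lowest values in AHRmKO were 0.995 for Itgal with programme limits of 4 UMIs and 0.98 for Fgr at a minimum of 4000 UMIs, and Arl5c turned to -0.09 there with programme limits of 0 UMIs. Pkib and Abi3 took the places of Retreg1 and Bin2 when the 110 nuclei were left out, and Abi3 overlaps the stronger Zfp652.

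Genes lower than in Mrc1-high nuclei included parts of the resident programme that the rule had not used. Rbpj, the DNA-binding partner of Notch, stood at 219 CPM in AHRfl/fl members against 1460, and at 171 against 512 in AHRmKO, log2 ratios of -2.74 and -1.58. Plekhg5, a guanine nucleotide exchange factor, had the lowest ratios, -3.86 and -2.69. Clec10a, a lectin receptor gene, was at -2.68 and -1.66 (0.02 in AHRmKO with programme limits of 0 UMIs for both sets). Dab2, an endocytic adaptor, was at -1.61 and -1.41. Cnrip1, Abca9 and Stard8 were also among the 8 lowest, and Cnrip1 overlaps the stronger Plek. Rbpj, Plekhg5, Dab2, Abca9 and Stard8 were 2-fold lower in both libraries under each of the 12 alternatives run, while Cnrip1 was at -0.87 in AHRmKO with programme limits of 0 UMIs. Rgl1 took the place of Stard8 when the 110 nuclei were left out. Over the resident macrophage list outside the rule, the median log2 ratio was -0.92 in AHRfl/fl (6 of 15 genes 2-fold lower, 1 higher) and -0.85 in AHRmKO (5 of 13 lower, 0 higher), beside 0.07 and 0.04 over all genes. Of all genes counted in a library, 2.71% in AHRfl/fl and 3.31% in AHRmKO were 2-fold lower against Mrc1-high nuclei, and 4.38% and 6.4% higher. Gas6, a ligand of Axl, was at -1.85 and -1.04, and Stab1, a scavenger receptor, at -1.32 and -0.96.

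Against Gpnmb-high nuclei, the members were higher in Adgre4, Nrg2 and Ccr2 and lower in Dock3, in the adrenergic receptor gene Adra1a and in the hexokinase gene Hk3. Of 11910 genes compared, 78 (0.655%) were 2-fold or more higher in both libraries and 98 (0.823%) lower. The counts were 34 and 141 of 11697 when the 110 nuclei were left out. Adgre4, an adhesion receptor of monocytes and macrophages, gave 100.6 CPM in AHRfl/fl members against 32.4, and 58.7 against 22.02 in AHRmKO, log2 ratios of 1.62 and 1.39. Ccr2 was at 1.04 (0.87 to 1.21) and 1.57 (1.02 to 2.17), and Nrg2, a neuregulin, at 1.28 and 1.26. At a minimum of 4000 UMIs Ccr2 was at 0.01 and 0.42, and Nrg2 at 0.69 in AHRfl/fl. With programme limits of 0 UMIs Adgre4 was at 0.99 in AHRmKO and Nrg2 at 0.79. These 3 genes were not higher than in Mrc1-high nuclei in both libraries. Against that set Adgre4 was at 1.40 and -0.05 and Ccr2 at 0.48 and -0.04. Nrg2 was at -0.54 and -0.33 there without the 110 nuclei. Fgr was at 0.77 and 0.83 against Gpnmb-high nuclei, under 2-fold. Zfpm2, Bicc1, Sox5, Slit3 and Egfr were also among the 8 highest, at 0.96 to 1.19 in AHRfl/fl, but without the 110 nuclei their AHRfl/fl ratios turned to between -0.51 and -1.89. In AHRmKO these 5 genes stood below free RNA. In their places came Ifi213, Pot1b, Itgal, Runx3 and Apobec3. Runx3 encodes a transcription factor of leukocytes, and Apobec3 an enzyme that deaminates viral DNA. In that comparison Itgal was at 1.05 and 1.38, and Ifi213 at 1.10 and 1.496. Ifi213 turned to -0.24 in AHRfl/fl with programme limits of 0 UMIs for both sets, and Runx3 to -0.39 at a minimum of 4000 UMIs.

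The genes lowest against Gpnmb-high nuclei were Dock3, Zranb3, Adra1a, Hk3, Cipc, Htr2b, Lrp12 and Nav2. Dock3, a Rac exchange factor, gave 24 and 10 UMIs in members and ratios of -2.43 and -2.75. The 8 genes were 2-fold lower in both libraries under each of the 12 alternatives, except Zranb3, at -0.97 in AHRmKO with programme limits of 4 UMIs. Htr2b, a serotonin receptor gene at -1.45 and -2.28, overlaps the stronger Psmd1. When the 110 nuclei were left out, Il7r, the interleukin-7 receptor, Bcar3 and Mecom took the places of Htr2b, Lrp12 and Nav2. Il7r was then at -1.94 and -2.09. Over all members Il7r was at -1.93 and -1.27, and at -0.71 and -0.13 with programme limits of 0 UMIs. Over the lipid and lysosome list outside the rule, the median was -0.53 in AHRfl/fl and -0.73 in AHRmKO, beside 0.04 and 0.08 over all genes. Of 22 genes, 2 were 2-fold lower in AHRfl/fl and 8 in AHRmKO, and 0 were 2-fold higher in either. Of all genes counted in a library, 3.25% and 4.55% were 2-fold lower against Gpnmb-high nuclei, and 2.43% and 7.46% higher. Cd36, a fatty acid transporter, was at -1.34 and -1.97, and Pparg, a lipid-sensing nuclear receptor, at -1.17 and -1.57. Itgax, which encodes CD11c, was at -0.86 and -0.37 against Gpnmb-high but at 1.80 and 1.99 against Mrc1-high nuclei.

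**Figure D4:**
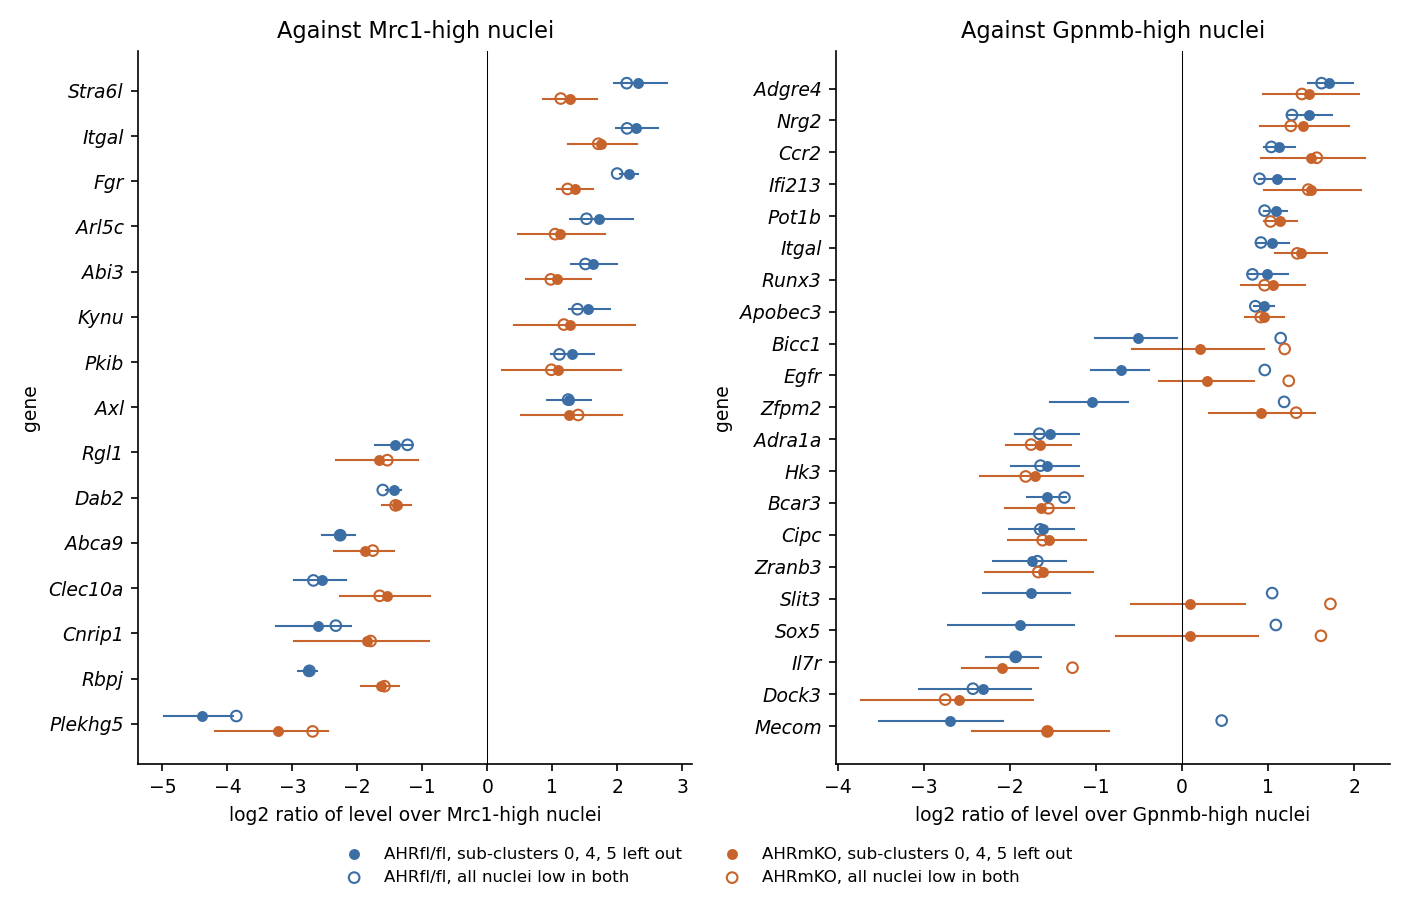
Log2 ratio of the level of each gene in nuclei low in both programmes over Mrc1-high nuclei (left) and over Gpnmb-high nuclei (right), in each library, with 0.5 CPM added. Filled points leave out sub-clusters 0, 4 and 5 and carry 95% intervals for counting error, and open points are all 1165 nuclei; Slit3, Sox5, Zfpm2, Egfr and Bicc1 change sign in AHRfl/fl when those sub-clusters are left out, while Itgal and Fgr stay higher.

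MHC class II presentation genes had medians above 0 against both sets, at values of 0.74 and 0.49 against Mrc1-high nuclei (3 of 10 genes 2-fold higher in AHRfl/fl and 2 of 9 in AHRmKO, 1 lower in each) and 0.46 and 0.77 against Gpnmb-high nuclei (1 and 4 of 10 genes 2-fold higher, 0 lower). Of all genes, 4.38% and 6.4% were 2-fold higher against Mrc1-high and 2.43% and 7.46% against Gpnmb-high nuclei. Ciita, the switch factor of this pathway, was at 1.27 and 0.44 against Mrc1-high and at 0.73 and 1.25 against Gpnmb-high nuclei. Interferon-response genes had medians of 0.08 and -0.39 against Mrc1-high nuclei, where 0 of 35 and 0 of 33 were 2-fold higher and 0 and 3 lower, and of 0.45 and 0.46 against Gpnmb-high nuclei, where 1 of 35 and 3 of 34 were 2-fold higher, shares near those of all genes, and 0 lower. Of the 4 leukocyte markers, Epsti1, an interferon-induced gene, was at 0.10 and -0.26 against Mrc1-high and at 0.67 and 0.55 against Gpnmb-high nuclei, while Ptprc was at 1.03 and 0.19 and at 0.51 and 0.33. Arhgap15, a Rac-directed GTPase activator, was at 0.04 and -0.19 and at 0.44 and 0.06.

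Between the libraries, members of AHRmKO had higher levels of early-response genes such as Fos and Fosb, and lower levels of 4 MHC class II genes, of the chemokine gene Cxcl10 and of the chemokine receptor genes Cx3cr1 and Ccr2, than members of AHRfl/fl. Of 13032 genes with 10 or more UMIs, 898 (6.89%) were 2-fold or more higher in AHRmKO and 2722 (20.9%) 2-fold or more lower, and the median log2 ratio was -0.12. With free RNA subtracted the counts were 1707 higher and 2618 lower by the profile of 200 to under 500 UMIs, and 2560 and 2140 by that of at most 100 UMIs. The libraries also differed in traits that run through all nuclei. Members had a median of 0.96% mitochondrial UMIs in AHRfl/fl and 2.56% in AHRmKO, and the sum of 10 myofibre genes, which leukocytes do not make, was 2202 CPM against 479. Gm42418, which overlaps ribosomal RNA, was at 3938 against 29416 CPM. The part of free RNA in members, estimated from 12 fibre genes, was 20.4% and 18.5% with the profile of 200 to under 500 UMIs and 35.1% and 11.8% with that of at most 100 UMIs. Genes that overlap a stronger gene on the other strand made up 1892 of the 13032, and 48.2% of them were 2-fold lower, against 16.3% of the other 11140. Without them the counts were 813 higher and 1811 lower.

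Early-response genes, whose transcription starts within minutes of a stimulus or of tissue dissociation, had the highest median of the 12 function lists. Of 17 genes, 10 were 2-fold higher and 0 lower (6.89% and 20.9% of all genes), with a median of 1.28, beside 1.62 in Mrc1-high and 0.77 in Gpnmb-high nuclei. Leaving out the 110 nuclei gave 8 of 15 higher and a median of 1.03. Fos gave 49 UMIs (20.6 CPM) in AHRfl/fl and 334 UMIs (356 CPM) in AHRmKO, a log2 ratio of 4.08 (3.67 to 4.57). Fosb gave 5 and 161 UMIs, a ratio of 6.05 (5.10 to 7.99). Both encode subunits of AP-1. Klf4, a zinc finger factor of monocytes, stood at 12.6 and 74.7 CPM against 31.2 and 31.9 in free RNA, Atf3, a stress-induced factor, at 17.3 and 96.0, and Dusp1, a phosphatase of MAP kinases, at 82.9 and 249.6. Free RNA of AHRmKO held 158 CPM of Fos and 66.1 of Fosb, against 33.6 and 6.45 in AHRfl/fl. The ratio of Fos was 3.76 in Mrc1-high and 3.59 in Gpnmb-high nuclei. The part of free RNA in these values was not tested.

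The other genes with the highest ratios were Rilpl2 (32.4 against 209 CPM, ratio 2.67), Lrrc45 (15.6 against 73.6, ratio 2.20) and Neurl2, whose reads are uncertain. Rilpl2 encodes a RAB-binding protein of the primary cilium. St6galnac3, Tox and Cd163l1 were also among the 10 highest, at 2.63, 2.46 and 3.97, but these rested on the 13 nuclei of sub-cluster 5. Their ratios without the 110 nuclei were -0.30, -0.29 and 0.21. Among genes that overlap no stronger gene, the 10 highest then also held Rgl2, Cdk10, Zfp263 and Nfkbid. Rgl2 was at 1.98, or 0.64 with programme limits of 0 UMIs. Nfkbid, a nuclear regulator of NF-kB, stood at 16.8 and 74.7 CPM over all members.

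Of the 10 lowest genes, 9 overlap a stronger gene on the other strand, among them Lysmd4 (1502 and 14 UMIs), Tg, Lrrc4 and Angpt2. Angpt2 gave 120 UMIs in AHRfl/fl and 0 in AHRmKO, at least 15.8-fold lower against a floor of 3 UMIs over the library's members. It lies wholly within Mcph1 on the other strand, and whether counting used strand is not given, so its reads are uncertain. The exception was Cxcl10, at 243 UMIs (102 CPM) in AHRfl/fl and 7 UMIs (7.47 CPM) in AHRmKO, a log2 ratio of -3.69 (-5.11 to -2.71). The ratio was -3.42 in Mrc1-high and -2.98 in Gpnmb-high nuclei, and free RNA held 51.7 and 1.59 CPM, whose part in the ratio was not tested. Its neighbour Cxcl9 gave 44 and 0 UMIs, at least 5.79-fold lower on the same floor, and its 18.5 CPM in AHRfl/fl lay below the 26.2 CPM of free RNA (2.28 in AHRmKO). Next among genes that overlap no stronger gene were Phykpl, Fgfr2, Csmd1, Tmem179b, Cx3cr1, Nox4, Mecom, Tor3a and Ptger4. Cx3cr1, the fractalkine receptor, gave 252 and 22 UMIs, a ratio of -2.15 (-2.88 to -1.55), and was at -1.58 and -1.86 in the other sets. It was at -0.44 at a minimum of 4000 UMIs, as Ptger4 was at -0.81. In AHRmKO, Phykpl, Fgfr2, Csmd1, Nox4, Mecom and Tor3a stood below free RNA, with 102 CPM of Csmd1 and 79.05 of Mecom in free RNA against 11.7 and 19.2 in members. Tmigd3, Cep68 and Ccr2 took the places of Csmd1, Nox4 and Mecom when the 110 nuclei were left out. Ptger4, a receptor for prostaglandin E2, stood at 70.7 and 18.1 CPM, and Fgfr2, a fibroblast growth factor receptor, at 369 and 54.4.

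MHC class II presentation had the lowest median of the function lists, at -0.89 with 0 of 10 genes 2-fold higher and 4 lower (6.89% and 20.9% of all genes). Cd74, the invariant chain, gave 406 UMIs (171 CPM) in AHRfl/fl and 31 UMIs (33.1 CPM) in AHRmKO, a ratio of -2.35 (-2.95 to -1.84). H2-Ab1 gave 190 and 5 UMIs, H2-Aa 188 and 10, and H2-Eb1 128 and 6. These 4 genes were the ones lower by 2-fold. In AHRfl/fl their levels in members lay below those of free RNA, which held 242 CPM of Cd74 and 104 of H2-Ab1. In AHRmKO free RNA held 15 and 4.797 CPM, and the part of free RNA in these ratios was not tested. Ciita, at 65.7 and 38.4 CPM against 5.30 and 5.74 in free RNA, was at -0.77 (-1.34 to -0.24), and Cd86, a costimulatory ligand, was at -0.87 (-1.24 to -0.53). The list's median was -0.84 in Mrc1-high and -1.02 in Gpnmb-high nuclei. It moved to -0.29 at a minimum of 4000 UMIs and to -3.01 without nuclei holding 2 or more UMIs of any lymphocyte, mast, neutrophil or dendritic list. The list for type 2 conventional dendritic cells holds Ciita, so that setting selects in part on this pathway. The plasmacytoid dendritic list alone met the limit in 65.6% of AHRfl/fl members and 98.15% of AHRfl/fl Pax7 nuclei, so it does not mark a cell type here.

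The interferon-response list had a median of -0.61, with 0 of 35 genes 2-fold higher and 11 lower (6.89% and 20.9% of all genes), beside -0.21 in Mrc1-high and -0.51 in Gpnmb-high nuclei. With programme limits of 0 UMIs the median was -0.09. Its summed level was 4565 CPM in AHRfl/fl and 3671 in AHRmKO, against 1433 and 913 in free RNA. Epsti1 stood at 666 CPM in AHRfl/fl and 322 in AHRmKO, a ratio of -1.05 (-1.23 to -0.87), which turned to 0.15 at a minimum of 4000 UMIs. Rsad2 stood at 77.0 and 29.9 CPM, a ratio of -1.35 (-1.996 to -0.79), and Ifit3 at 32.4 and 8.53. Of the Rsad2 UMIs, 146 lay in the 60 nuclei of sub-cluster 3, at 871 CPM, against 14.3 CPM in sub-cluster 1 and 13.3 in sub-cluster 6. Ifi207 and Parp14 lay higher, at 0.44 and 0.33, with intervals above 0. Within sub-clusters the list summed to 3549 CPM in the Fos-led sub-cluster 6, to 3453 and 3548 in sub-clusters 1 and 2, and to 21599 in the 58 AHRfl/fl nuclei of sub-cluster 3.

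Among the genes of lipid and lysosome handling, 0 of 22 were 2-fold higher and 8 lower (6.89% and 20.9% of all genes), with a median of -0.54, or -0.73 without the 110 nuclei. Spp1 gave 2689 and 143 UMIs, a ratio of -2.89, and Ctsb, a cathepsin, 3011 and 421. Both stood below their free RNA in each library, 4432 and 480 CPM for Spp1 and 3284 and 550 for Ctsb. Free RNA held 18531 and 3961 CPM of the list against 8656 and 6035 in the members. With free RNA subtracted by the profile of 200 to under 500 UMIs the median was 0.01. Abca1, a cholesterol exporter well above free RNA, was higher at 0.65 (0.55 to 0.74), and Mitf was at 0.00. The resident list outside the rule had a median of -0.36 (1 of 12 higher and 4 lower, beside the same shares of all genes). Stab1 was the gene higher, at 1.30 (1.15 to 1.45), from 315 to 778 CPM against 215 and 254 in free RNA. Selenop, Pf4, Folr2 and Cbr2 were lower, and all 4 stood below free RNA in AHRfl/fl.

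Chemokine receptors moved apart from one another, with 1 of 8 higher, 3 lower and a median of -0.34, beside 6.89% of all genes higher and 20.9% lower. Ccr2 was at -1.63 (-2.07 to -1.22), or -0.36 with programme limits of 0 UMIs, and Cx3cr1 at -2.15, while Cxcr4, which holds leukocytes in tissue, was at 0.91 (0.66 to 1.18). Ccrl2 was the gene 2-fold higher, on 18 and 17 UMIs. Cxcr6, with 44 and 3 UMIs, overlaps the stronger Fyco1. Of the pattern recognition receptors, 3 of 16 were higher and 0 lower, beside the same shares of all genes, with a median of 0.42. The median was 1.10 at a minimum of 4000 UMIs and turned to -0.12 without nuclei of lymphocyte, mast, neutrophil or dendritic markers, and 2 genes were higher without the 110 nuclei. The setting behind -0.12 left out each nucleus with 2 or more UMIs of any such list. The plasmacytoid dendritic list alone met this in 65.6% of AHRfl/fl members. The 3 genes higher over all members were Naip5, Nlrp1b and, on 24 and 21 UMIs, Tlr6. Naip5, a sensor of bacterial flagellin, stood at 122 and 306 CPM, a ratio of 1.32 (1.08 to 1.56), and Nlrp1b, an inflammasome sensor, at 114 and 235 CPM, a ratio of 1.04 (0.78 to 1.31). Naip2, Naip5 and Naip6 are close copies of one another, so their reads are uncertain. Tlr7 was at -0.36 (-0.59 to -0.14).

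Motility and adhesion genes had a median of 0.23, with 3 of 21 higher and 0 lower, or 2 higher without the 110 nuclei. The counts in this paragraph stand beside 6.89% of all genes higher and 20.9% lower. Arhgap45, a GTPase-activating protein of blood cells, stood at 228 and 580 CPM, a ratio of 1.35 (1.18 to 1.52), and Coro1a and Was, which organise actin, at 1.09 and 1.02. Skap2 was at -0.71 (-0.87 to -0.56) and Itgal at 0.31 (0.04 to 0.56). Src-family and Fc receptor genes had a median of -0.08, with 0 of 19 higher and 1 lower. At a minimum of 4000 UMIs, which left 68 AHRfl/fl and 38 AHRmKO members, the medians of these lists were 0.93 (motility) and 0.77 (Src family). Fgr was at -0.54 (-0.68 to -0.40) but at 0.54 at a minimum of 4000 UMIs, Lyn at -0.42 (-0.50 to -0.33) and Syk at 0.61 (0.48 to 0.75). The gene lower by 2-fold was Tyrobp, at -1.62, whose 279.5 CPM in AHRfl/fl lay below the 777 of free RNA. Of the 16 inflammatory genes counted, 4 were higher and 2 lower, with a median of 0.08, or 1 lower and -0.02 without the 110 nuclei. Il1b, with 22 and 32 UMIs, was at 1.83 (1.05 to 2.74), Nfkbiz, an inducible NF-kB cofactor, at 1.05 (0.71 to 1.40), and Nfkb1 at -0.17. Growth and repair signals had a median of -0.27, with 1 of 13 higher and 3 lower (2 without the 110 nuclei), shares near the 6.89% and 20.9% of all genes. That median turned to between 0.01 and 0.05 under 3 alternatives. Tgfb1 was at 0.18 (-0.06 to 0.41).

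**Figure D5:**
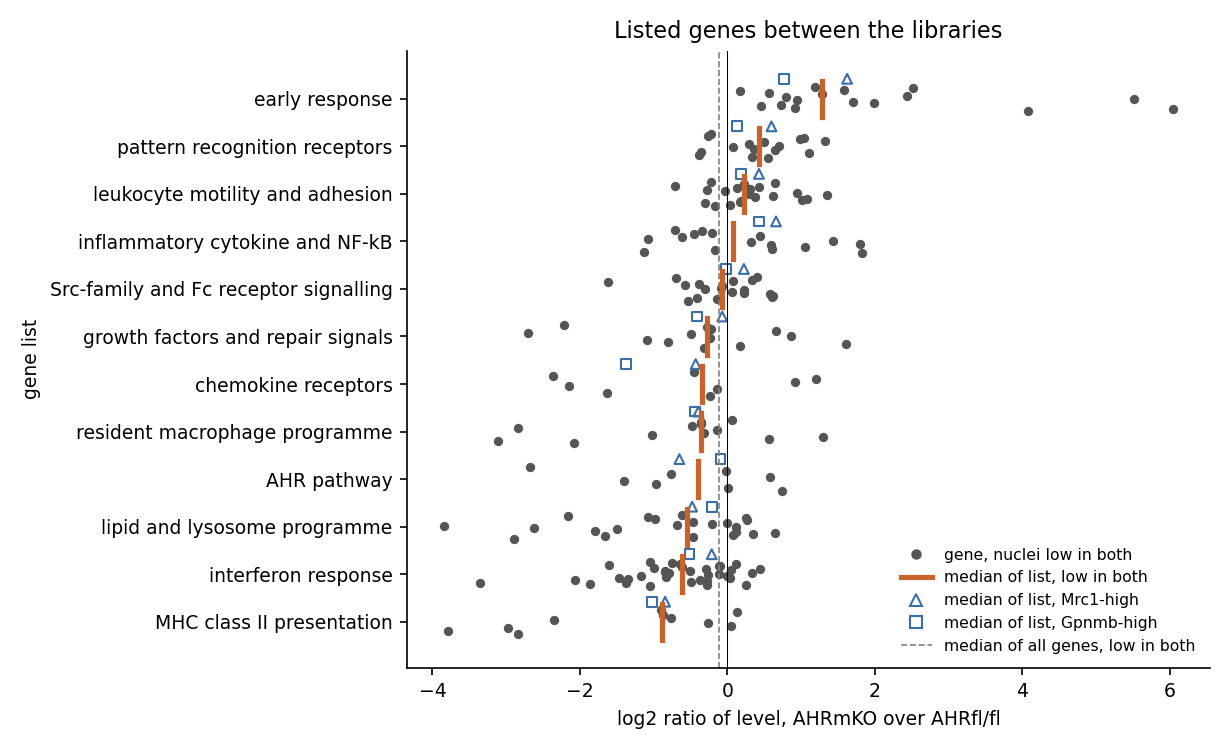
Log2 ratio of level, AHRmKO over AHRfl/fl, of each gene counted (grey points) in 12 function lists, in nuclei low in both programmes, with the list's median (orange bar), its median in Mrc1-high (triangles) and Gpnmb-high nuclei (squares) and the median of all genes (dashed line). The early response list lies to the right, at a median of 1.28, and the MHC class II list to the left, at -0.89.

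Ahr itself was low in these nuclei. It gave 75 UMIs (31.6 CPM) in AHRfl/fl members and 50 UMIs (53.3 CPM) in AHRmKO members, against 18.5 and 20.1 CPM in free RNA. The log2 ratio was 0.75 (0.21 to 1.29), beside 0.77 in Mrc1-high and 0.12 in Gpnmb-high nuclei. The deletion is directed at muscle fibres by the actin promoter, and 3′ tags need not fall in the deleted part of the gene, so these counts are no check of the genotype. Arnt, its partner, was at 173 and 174 CPM. Of the targets, Tiparp, a feedback inhibitor, stood at 62.7 and 93.9 CPM, a ratio of 0.58 (0.18 to 0.97), which turned to -0.22 at a minimum of 4000 UMIs. Ahrr, the AHR repressor, gave 21 and 4 UMIs (-0.97, -3.05 to 0.52) and Cyp1b1, an oxidising enzyme, 22 and 3 (-1.40, -3.92 to 0.20). Both intervals hold 0. Cyp1b1 stood below free RNA in both libraries (9.26 against 20.6 and 3.20 against 7.79 CPM), and Tiparp in AHRfl/fl (62.7 against 68.9). Cyp1a1 gave 0 UMIs in both. Of 8 pathway genes counted, 0 were 2-fold higher and 2 lower, near the 20.9% of all genes, with a median of -0.39. Without the 110 nuclei the median over 7 genes was -0.01, and with programme limits of 0 UMIs it was 0.05. The 2 lower were Cyp1b1 and Hsp90ab1, a chaperone of AHR in its resting state, whose 352 CPM in AHRfl/fl lay below the 1600 of free RNA.

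The AHR core motif GCGTG, searched on both strands, stood in 6 of 7 matched promoters of the pathway, in 30.85% of all genes with an entry and in 28.2% of all promoters. That of Ahrr holds 3, between 107 and 22 bases before the start, in capitals.
Ahrr (chr13:74292332-74292481, minus strand): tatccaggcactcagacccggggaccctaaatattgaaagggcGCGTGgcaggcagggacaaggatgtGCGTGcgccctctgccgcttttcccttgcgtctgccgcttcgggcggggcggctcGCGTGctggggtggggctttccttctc
The motif was also in 8 of the 29 interferon-response promoters (27.6%), a share near that of all genes, and in 7 of 14 early-response promoters. The AP-1 motif TGANTCA was in 0 of those 14, beside 7.82% of all genes with an entry, and the PU.1 motif GAGGAA in 13 of the 29 interferon promoters (44.8%), beside 25.85%.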

How the data were processed

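Nuclei of 2 libraries, 1 per group, were analysed from raw UMI counts of all barcodes, as the authors deposited them. The file headers give the Cell Ranger matrix format, and the submitters' processing notes name Cell Ranger 7.0.1 and the mm10 build. The libraries held 151788328 UMIs (AHRfl/fl) and 113737134 UMIs (AHRmKO). The members' own UMIs summed to 2375299 and 937543. Members shared 0 barcodes between the libraries. The nuclei, their limits and the gene lists were chosen with earlier results of these data known.

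Counts of the nuclei of a set were summed per library and scaled to CPM. Log2 ratios carry 0.5 CPM added, genes needed 10 UMIs, and a gene was counted as higher or lower past 2-fold, with no p-value. Ratios carry exact conditional binomial intervals. The text names the 10 highest and 10 lowest genes between libraries (8 against each set, by the smaller of the 2 libraries' ratios) among genes of at least 30 UMIs and 50 CPM in the higher library or set, without mitochondrial, haemoglobin, rule and clone-named genes; between libraries, a gene also had to be no lower than free RNA in the library where it was higher. It also names the 4 markers, Ahr, Arnt, Ahrr, Cyp1b1, Tiparp and the 2 to 4 genes of each list with most UMIs; other single genes were named after their values were seen, and some genes that the rule picks are not reported here. Members were clustered with scanpy 1.11.5 (2000 variable genes, 30 components, 15 neighbours, resolution 0.5). Doublets were marked by Scrublet score at 0.4% per 1000 nuclei and kept. Strands came from GENCODE M21, in which 32235 of 32285 gene IDs were found, and promoters from RefSeq. The ratios were tested on simulated data. Alternatives moved the UMI, leukocyte and programme limits, the CPM added, the gene minimum, free RNA and the nuclei kept; leaving out sub-clusters 0, 4 and 5, leaving out genes that overlap a stronger gene, and clustering each library alone were chosen after seeing the data.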

Additional observations from a re-analysis of the deposited data

How the results depend on the processing

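No paired analysis was possible because each group has 1 library, and for the same reason no replicate could be left out. Depth limits single genes: AHRmKO members held 937543 UMIs, so that 3 counts correspond to 3.2 CPM. Taken of leukocyte nuclei, the higher share of nuclei low in both programmes in AHRmKO kept its direction under every alternative run, with differences between 2.35 and 12.9 points. A count stayed if within 1.5-fold of the main value, a share or single-gene ratio if within its counting interval, and a list median if within 0.5. A median was called reversed only where its main value was at least 0.25 from 0. The tolerance for medians is as large as many of them: the AHR pathway median stayed in moving from -0.39 to -0.01. Of the values of counts and shares 121 stayed and 59 moved, and of list medians 221 stayed, 7 moved and 6 reversed. Of single-gene ratios between libraries 592 stayed, 79 moved and 7 reversed, and against the sets 851, 167 and 14. Causes were not tested.

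With 3 UMIs of a class, monocyte marker shares were 31.0% and 9.09% (classical, beside 37.7% and 34.1% of Pax7 nuclei) and 26.2% and 33.5% (nonclassical, beside 5.44% and 7.54%). With 5 CPM added, 476 genes were higher and 1724 lower between libraries, 28 and 35 against Mrc1-high, and 18 and 48 against Gpnmb-high nuclei. With genes of 1 UMI these were 1909 and 4554, 378 and 203, and 201 and 211, and with 50 UMIs 466 and 1300, 12 and 21, and 23 and 60. Subtracting free RNA left 1707 genes higher (200 to under 500 UMIs) or 2560 (at most 100), and the first turned the lipid and lysosome median to 0.0056. Clustering each library alone put 8 AHRmKO nuclei in the sub-cluster with most Rsad2 and 28 in that with most Slit3. Those 8 were the nuclei with T cell markers raised. No AHRmKO sub-cluster was then led by interferon-induced genes. A leukocyte minimum of 8 gave 46 genes higher than Gpnmb-high. Genes that overlap a stronger gene left out gave 1811 lower.

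A minimum of 1000 UMIs gave shares of 20.6% and 33.3%, a difference of 12.8 points, and 5.33% interferon-high nuclei in AHRfl/fl. A minimum of 4000 UMIs left 68 AHRfl/fl and 38 AHRmKO members. It gave shares of 5.195% and 7.54%, a difference of 2.345. With the interferon limit kept at 30 UMIs for these deeper nuclei, it gave interferon-high shares of 19.1% and 10.5%, a difference of -8.59. It moved medians to -0.29 (MHC class II), 0.77 (Src family), 0.93 (motility), 1.10 (pattern receptors) and 0.051 (growth), and ratios to -2.09 (St6galnac3), -1.09 (Tox), 0.54 (Fgr), 0.15 (Epsti1) and -0.22 (Tiparp). Then 106 genes were higher than Mrc1-high, 336 higher and 238 lower than Gpnmb-high, and Runx3 was at -0.39 there in AHRfl/fl. Without nuclei of lymphocyte, mast, neutrophil or dendritic markers, 1567 genes were lower, with medians of -3.01 (MHC class II) and -0.12 (pattern receptors). This setting left out each nucleus with 2 or more UMIs of any such list, most AHRfl/fl members among them.

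Programme limits of 0 UMIs gave shares of 1.485% and 4.17%, a difference of 2.68, 1348 genes lower, 165 higher and 276 lower than Gpnmb-high, and medians of -0.093 (interferon), -2.25 (MHC class II), 0.0062 (growth) and 0.046 (AHR pathway). In AHRmKO, Arl5c was then at -0.092 and Clec10a at 0.023 against Mrc1-high, Ifi213 at -0.24 in AHRfl/fl, and Mecom at -1.355 and 0.21 against Gpnmb-high. Limits of 4 gave 27.8% and 37.05% and Mecom at 3.43 in AHRmKO. The changed limits also redrew the Mrc1-high and Gpnmb-high sets. Thinning to 2000 UMIs gave 23.0% and 35.9%, a difference of 12.9, interferon-high shares of 11.5% and 11.1%, 560 genes higher, 64 lower than Gpnmb-high, a growth median of 0.013 and Mecom at 0.39. Thinning served here only to choose the nuclei, and their full counts were then used. These interferon-high shares are therefore not at equal depth. Counted in thinned UMIs, at 20 or more, the shares of the main members were 8.98% and 5.33%. Leaving out sub-clusters 0, 4 and 5 gave a share of 12.8% in AHRfl/fl, 34 genes higher than Gpnmb-high, St6galnac3 at -0.30 and Tox at -0.29, and, in AHRfl/fl against Gpnmb-high, Zfpm2 at -1.05, Bicc1 at -0.51, Sox5 at -1.885, Slit3 at -1.76, Egfr at -0.71 and Mecom at -2.69.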
